A study of Mus musculus with 5 samples.

Results

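The Zbtb genes of the mouse were followed through 2 lists of H3K9ac peaks, 1 from DOP-treated and 1 from untreated cells. All protein-coding genes of the GENCODE vM1 annotation with a symbol of Zbtb and a number were taken, which gave 37 genes of 22380 gene entries. Zbtb20 is split into 2 entries there, so 38 entries carry such a symbol. This family was chosen by values of these same lists, because Zbtb10 holds the strongest cluster of untreated peaks with no DOP-treated peak nearby and Zbtb20 holds DOP-treated peaks with no untreated peak nearby. Those values are therefore given below as a description.

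The cells were STHdh Q111 cells, a conditionally immortalised line of striatal progenitors from C57BL/6 mice, homozygous for mutant huntingtin (STHdh Q111/Q111). All cells were kept in serum-free medium for 24 h, with 4 mM 4-deoxypyridoxine hydrochloride (DOP, an inhibitor of sphingosine-1-phosphate lyase) in 2 samples and with the DPBS vehicle in the other 2, called untreated here. One further sample, an IgG control precipitation from untreated cells, was not analysed here. Every sample came from 1 cell line, and 1 peak list per condition was used, so no difference below has a replicate error or a test. Of 11 striatal and neural progenitor markers, 5 had a DOP-treated and 3 an untreated peak within 10 kb of a start. Vim, Dlx1 and Ebf1 had peaks in both lists, whereas Nes, Sox2, Pax6, Gsx2 and Dlx5 were among those with none in either list.

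Zbtb proteins pair a BTB (POZ) domain with zinc fingers. The zinc fingers bind particular DNA sequences, while the BTB domain forms dimers and recruits corepressors such as NCoR and BCoR with histone deacetylases, or the ubiquitin ligase scaffold Cul3. Many members are transcriptional repressors and fix cell fate in blood, immune and neural lineages. Acetylation of lysine 9 on histone H3 marks active promoters, which in mammals are often rich in CpG dinucleotides and in GC boxes, the binding sites of Sp1 and related factors.

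The question was where in this family the H3K9ac peaks differed between DOP-treated and untreated cells. A peak was counted for a gene when its centre, the position called by the authors' program, lay within 10 kb of any annotated transcript start. Each peak carries a score, which the files do not define, and it is given here as a percentile of its own list. Where the score itself or a sum of scores is printed, it is not known to be comparable between the lists. The DOP-treated list held 34286 peaks with a median score of 419, and the untreated list 33355 with a median of 400. A peak was shared when its 200-bp interval overlapped an interval of the other list by at least 1 bp. The absence of a peak means that none was called, which does not measure how little acetylation there was.

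DOP-treated peaks lay near 35 of the 37 Zbtb genes (94.6%), and the untreated list gave the same number. Over all protein-coding genes, the shares were 57.7% and 56.9%, respectively. Peaks of both lists lay near 34 members. Zbtb8b had a DOP-treated peak only, a state found in 2.39% of all genes. Conversely, Zbtb10 had untreated peaks only, which was the case for 1.62% of all genes. Zbtb16 had no peak in either list, as did 40.7% of all genes. The plot of peaks per gene shows these 3 members beside the rest of the family.

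**Figure D1:**
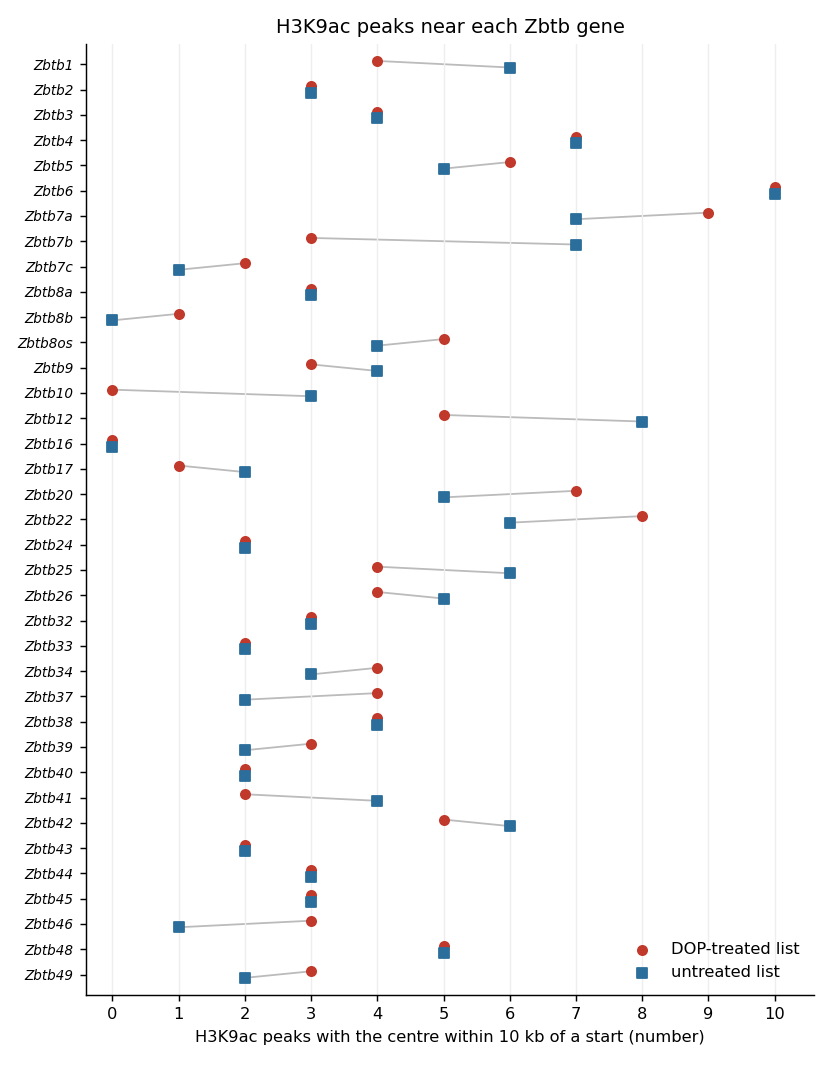
Number of H3K9ac peaks centred within 10 kb of a transcript start (horizontal axis) for each of the 37 Zbtb genes (vertical axis), with a circle for the DOP-treated list, a square for the untreated list and a line joining them. Of the genes, 15 had equal numbers in both lists, and Zbtb7b (3 against 7), Zbtb10 (0 against 3) and Zbtb12 (5 against 8) lay 3 or more peaks apart.

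In number of peaks, 15 members were equal between the lists, 19 differed by 1 or 2, and 3 differed by 3 or more. There were more DOP-treated peaks at 12 members (32.4%) and fewer at 10 (27.0%), against 19.3% and 16.9% of all genes. Genes with no peak in either list, which cannot differ, are included in these shares. They made up 40.7% of all genes and 2.70% of members, so the shares cannot be compared directly. The shares of genes 3 or more peaks apart carry the same limit. Zbtb1 and Zbtb25, which share all their peaks, both count among the 10. No member had at least 3 more DOP-treated peaks, which was seen in 1.41% of all genes. At least 3 fewer were found at Zbtb7b, Zbtb10 and Zbtb12 (8.11% of members), against 1.18% of all genes, and Zbtb10 was among the genes used to choose the family. Members with a peak had a median of 3 DOP-treated or 4 untreated peaks, while the median over all genes with a peak was 3 in both.

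Zbtb10 encodes a repressor that competes with Sp factors for GC boxes, and it is also known to bind variant telomeric repeats. The gene lies on the plus strand at chr3:9250602-9285333 (mm9) and has 2 annotated starts. Its untreated peak of highest score is shown because no DOP-treated peak was called near it, with GC boxes in capitals (GGGCGG or its complement CCGCCC). The interval, at chr3:9251336-9251535 on the plus strand, lies in a coding exon and holds 2 GC boxes.
Zbtb10 untreated peak: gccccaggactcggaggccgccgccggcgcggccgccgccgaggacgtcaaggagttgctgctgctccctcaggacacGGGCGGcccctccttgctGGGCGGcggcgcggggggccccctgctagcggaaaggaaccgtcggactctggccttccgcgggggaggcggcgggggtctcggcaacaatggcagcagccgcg

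Untreated peaks of Zbtb10 were centred 308 bp, 833 bp and 1349 bp downstream of the outer start. The first lay in the 5′ UTR with a score of 1205.7, at percentile 92.7 of the untreated list. The second, in the coding exon shown above, scored 1255.3 and reached percentile 93.5. The weakest of them, also in coding sequence, scored 594.0 and stood at percentile 68.0. All 3 peaks were thus in the upper part of their list and sat in exons at the start of the gene. Their scores summed to 3055.0, which put Zbtb10 at percentile 82.8 among the genes with an untreated peak.

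No DOP-treated peak was called near Zbtb10. The nearest was 104763 bp upstream of the first untreated peak and stood at percentile 8.62 of its list. Between neighbouring DOP-treated peaks at chr3:9146147-9501195 there was a stretch of 355 kb, and it held 4 untreated peaks, 3 of them those of Zbtb10 and the other at percentile 9.41. Zbtb10 was the only protein-coding gene with a start in that stretch. Across the genome, 18 genes (0.0804%) had 3 or more untreated peaks and no DOP-treated peak within 10 kb. Zbtb10 is among them, and because the family was chosen by these peaks, the share is a description only.

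The other known regulators of Sp1 sites or cell cycle genes had peaks in both lists. Zbtb2, which represses the p53 pathway and Cdkn1a through Sp1 sites, had 3 peaks in each list, and the highest stood at percentile 98.4 (DOP-treated) and 99.2 (untreated). Zbtb5, a repressor of Cdkn1a, had 6 DOP-treated peaks against 5, with the highest at percentiles 88.9 and 90.1. Zbtb49, which acts with Miz-1 at Cdkn1a, had 3 DOP-treated peaks against 2. Its shared peak in an intron stood at percentiles 80.1 and 80.6, and the other shared peak, at 72.9 and 86.5, lay in the 5′ UTR of the neighbouring gene Lyar. Of these 4 genes, Zbtb10 alone lacked a DOP-treated peak, the trait by which the family was chosen. Among the Sp factors themselves, Sp1 had 6 DOP-treated and 9 untreated peaks, Sp3 had 6 in each list and Sp4 had 2 in each list.

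Zbtb20 is a repressor needed for the identity of hippocampal pyramidal neurons and for the formation of astrocytes. It is the longest member, spanning 767 kb of chromosome 16 at chr16:42875994-43642715 on the plus strand, with 20 annotated starts. Of these starts, 9 had a DOP-treated and 1 an untreated peak within 1 kb. A peak near several starts is counted for each of them. The contrast rests on 3 DOP-treated peaks without a counterpart, which are among the values that chose the family.

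At the outer start of Zbtb20 the lists matched. The strongest peak there was centred at position 42876311 of chromosome 16 in the DOP-treated list (percentile 86.0) and at 42876350 in the untreated list (percentile 89.4). Inside the gene, 3 DOP-treated peaks had no untreated counterpart. The strongest was centred 6 bp downstream of an internal start, annotated for a retained-intron transcript, scored 527.0 and stood at percentile 60.6. A second followed at 43364758 with a score of 129.0 (percentile 13.9), and one at 42907595 scored 119.0 (percentile 12.6). Only the first of these was above the middle of its list.

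The nearest untreated peaks were 180926 bp and 182101 bp from the pair at the internal start, and 30937 bp from the peak at 42907595. An untreated-free stretch of 707 kb from 43182657 to 43889501 held the pair and 1 further DOP-treated peak, with starts of Zbtb20, Drd3, Qtrtd1 and Tigit inside it. In all, Zbtb20 had 7 DOP-treated peaks against 5, and the sum of their scores was 2737.0 against 1836.0. Its place depended on the choice of starts. When only starts of protein-coding transcripts were used, the peaks at the outer start were no longer counted, and Zbtb20 was left with DOP-treated peaks only.

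**Figure D2:**
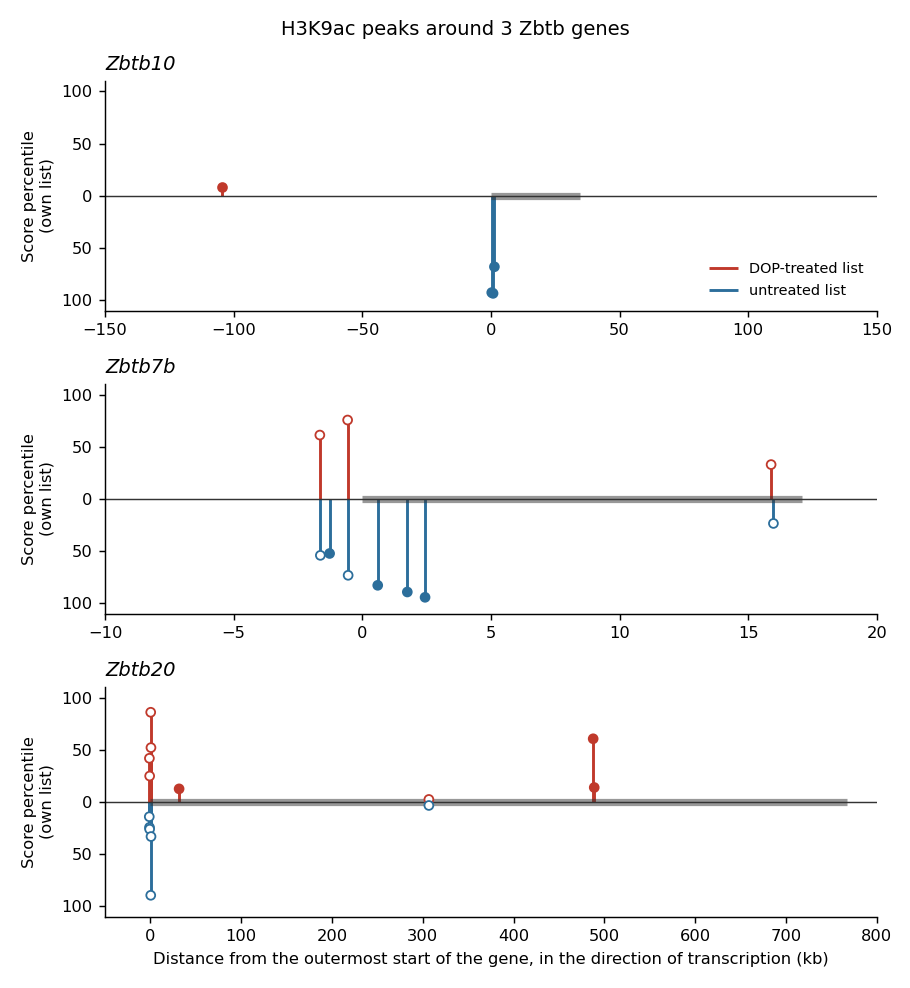
H3K9ac peaks around Zbtb10, Zbtb7b and Zbtb20 by distance from the outermost start in kb (horizontal axis, direction of transcription to the right), with the percentile of each score in its own list drawn upwards for the DOP-treated list and downwards for the untreated list. Filled circles have no overlapping peak in the other list, open circles have one, and the grey bar is the gene. The 3 untreated peaks of Zbtb10, 4 untreated peaks of Zbtb7b and 3 DOP-treated peaks of Zbtb20 are filled.

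Among the 9 regulators of blood and immune cells, 8 had peaks in each list. Of the 9, 2 carried more DOP-treated peaks, 4 fewer and 3 equal numbers. The 4 include Zbtb1 and Zbtb25, which share all their peaks, and the 3 include Zbtb16, without a peak in either list. Over all genes, 57.7% had a DOP-treated and 56.9% an untreated peak, 19.3% had more DOP-treated peaks and 16.9% fewer. The limit on comparing such shares given above holds here too. Of the 9 regulators, Zbtb7b (ThPOK), which directs thymocytes to the helper T cell fate, departed most. It lies on the minus strand at chr3:89181566-89198698 and has 10 starts. Its strongest untreated peak without a counterpart, at chr3:89196156-89196355, is printed on the minus strand to show the intronic sequence that was called in 1 list only, and it contains no GC box.
Zbtb7b untreated peak: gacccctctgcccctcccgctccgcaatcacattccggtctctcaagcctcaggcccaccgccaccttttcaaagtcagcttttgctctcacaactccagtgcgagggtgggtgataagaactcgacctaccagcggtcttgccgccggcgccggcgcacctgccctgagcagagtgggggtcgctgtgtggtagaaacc

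That untreated peak scored 1305.0, at percentile 94.3. Further untreated peaks without a counterpart were centred at position 89196950 of chromosome 3 (score 1050.0, percentile 89.2), at 89198095 (score 856.3, percentile 82.8) and at 89199966 (score 422.0, percentile 52.3). The first 3 fell in introns of Zbtb7b and the last lay upstream of it. The remaining 3 untreated peaks matched the 3 DOP-treated ones. Upstream of the outer start, peaks centred at 89199268 (DOP-treated) and 89199245 (untreated) stood at percentiles 75.6 and 73.2. A second upstream pair, at 89200345 and 89200330, stood at 61.2 and 54.1. The pair in the 3′ UTR, at 89182805 and 89182719, stood at 32.9 and 23.5.

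The 3 strongest untreated peaks of Zbtb7b were thus among the 4 without a DOP-treated counterpart, and all 4 lay between pairs that both lists held. Of the 10 starts, 1 had a DOP-treated and 8 an untreated peak within 1 kb. The DOP-treated scores summed to 1543.6 and the untreated ones to 4931.3. As a percentile among genes with a peak, this sum stood at 95.7 in the untreated list and at 51.1 among DOP-treated values, a difference of -44.6 points. Of 12375 genes with peaks in both lists, 7 (0.0566%, Zbtb7b included) moved at least as far in that direction.

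Zbtb7a (LRF), a regulator of erythroid and lymphoid development closely related to Zbtb7b, had no untreated peak without a DOP-treated counterpart. It had 9 DOP-treated and 7 untreated peaks, with the highest 291 bp and 290 bp downstream of a start at percentiles 99.7 and 99.6. Its 1 DOP-treated peak without a counterpart lay 4927 bp downstream of a start at percentile 41.0. Zbtb7c, the third paralogue, which is known for the control of lipid synthesis genes, had weak peaks that did not match. Its DOP-treated peaks, at percentiles 15.5 and 4.30, lay at an internal start, and its single untreated peak, at percentile 8.23, lay 727 bp upstream of the outer start. The 3 paralogues thus held strong shared peaks, strong peaks partly missing from the DOP-treated list, and weak peaks at different starts.

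Zbtb16 (PLZF), which directs innate-like lymphocytes and spermatogonial stem cells, had no peak within 10 kb of its single start in either list. Its promoter at chr9:48644051-48644300, read on the minus strand, is shown since its 2 GC boxes (capitals) and a GC content of 67.2% resemble those of members with peaks.
Zbtb16 promoter: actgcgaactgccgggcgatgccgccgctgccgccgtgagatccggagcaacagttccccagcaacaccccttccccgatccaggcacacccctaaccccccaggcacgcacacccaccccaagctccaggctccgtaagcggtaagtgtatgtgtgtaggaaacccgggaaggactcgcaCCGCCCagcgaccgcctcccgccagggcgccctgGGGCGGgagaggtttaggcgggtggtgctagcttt

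Zbtb17 (Miz-1), the partner of Myc in repression, had 1 DOP-treated peak at percentile 93.7 that matched an untreated peak at percentile 92.7. A second untreated peak, 376 bp from the DOP-treated centre, stood at percentile 54.7. Zbtb46, a marker of classical dendritic cells, had 3 DOP-treated peaks against 1. The shared peak stood at percentiles 62.6 and 56.6, and the DOP-treated peaks beside it stood at 21.1 and 29.4. Zbtb24, in which mutations cause a syndrome of immunodeficiency and centromere instability, had 2 peaks in each list, and its stronger one was centred at the same base in both, at percentiles 95.1 and 95.0.

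Zbtb1 and Zbtb25, regulators of lymphocytes that start close to each other on opposite strands, shared all their peaks, 4 in the DOP-treated and 6 in the untreated list. Among these, 1 untreated peak, in an intron of Zbtb1, had no counterpart and stood at percentile 63.7. Zbtb32, a repressor in activated lymphocytes, reached percentiles 97.9 and 97.8 with 3 peaks in each list. Each of those peaks was nearest to a start of the neighbouring gene Wbp7, and none lay within 1 kb of a Zbtb32 start.

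The 3 members that bind methylated DNA had equal numbers of peaks in both lists. Zbtb33 (Kaiso) had 2 in each, with the highest at percentiles 73.2 and 70.7. Zbtb38 had 4 in each, with the highest at 60.1 and 73.9. Zbtb4 had 7 in each, of which 5 in each list lay nearest to a start of Polr2a, and its highest stood at 93.7 in the DOP-treated and 76.7 in the untreated list. At the Zbtb4 start itself, 1 untreated peak of score 524.8 and another of 730.2 stood against DOP-treated peaks of 1280.9 and 434.1, the last of which overlapped no untreated interval.

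Zbtb45, a regulator of glial differentiation, had 3 peaks in each list, and its highest stood at percentile 86.1 in the DOP-treated and 68.4 in the untreated list. There, 2 untreated peaks of scores 310.3 and 600.7 lay on either side of the DOP-treated peak of 970.0. Zbtb48 (TZAP), which binds telomeres and limits their length, had 5 peaks in each list, with the highest at percentiles 84.0 and 67.3. At Zbtb45, Zbtb48 and Zbtb4, the interval of the highest DOP-treated peak overlapped 2 untreated intervals. At the Zbtb4 start as a whole, each list held 2 calls. Whether the number of calls accounts for the percentiles was not tested.

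The remaining 17 members are less characterised, and all had DOP-treated peaks while 16 had untreated ones. Zbtb41 held the strongest peak of the family. In the DOP-treated list a peak centred 159 bp downstream of its start scored 3982.6, at percentile 99.9. The untreated list held 3 peaks in the same region, with the highest 174 bp downstream of the start at a score of 2507.1 and percentile 99.6. Its promoter at chr1:141318710-141318959, on the plus strand, is shown as that of the member with the highest-scoring peak, with 2 GC boxes in capitals and a GC content of 78.4%.
Zbtb41 promoter: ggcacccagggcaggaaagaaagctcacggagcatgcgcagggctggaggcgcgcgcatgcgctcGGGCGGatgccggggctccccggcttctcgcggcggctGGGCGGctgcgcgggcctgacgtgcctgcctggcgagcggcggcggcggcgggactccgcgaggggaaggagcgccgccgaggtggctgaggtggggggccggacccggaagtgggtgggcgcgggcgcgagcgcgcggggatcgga

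Zbtb6 had the most peaks, 10 in each list, and reached percentiles 97.3 and 96.1. Its highest peaks lay nearest to a start of Rc3h2, and 4 of the DOP-treated peaks were also counted for Zbtb26, whose starts lie close to the outer start of Zbtb6. Zbtb8os, which is named for its position opposite a Zbtb gene and encodes the tRNA ligase cofactor archease instead of a zinc finger protein, reached percentiles 94.8 and 99.0. Those peaks were nearest to a start of Rbbp4, a histone-binding subunit of deacetylase complexes. Zbtb8b had 1 weak DOP-treated peak, 4714 bp upstream of a start and at percentile 14.2.

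Zbtb12 had 5 DOP-treated peaks, each with an untreated counterpart, and 8 untreated peaks. Of the untreated peaks, 2 lacked a counterpart, 1 in the 5′ UTR of Zbtb12 at percentile 18.3 and 1 in an intron of the neighbouring methyltransferase gene Ehmt2 at percentile 73.5. The rest of the difference arose at the Zbtb12 start, where untreated peaks of scores 383.0 and 299.2 met a single DOP-treated peak of 717.5. Zbtb22 showed the opposite balance with 8 DOP-treated peaks against 6, and 4 of the DOP-treated ones had no counterpart. They stood at percentiles 39.6 and 49.3 near Daxx, at 26.9 in an intron of Zbtb22 and at 17.5 in its 3′ UTR. Zbtb37 had 4 DOP-treated peaks against 2, and those without a counterpart stood at percentiles 58.7 and 41.1.

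Score sums ranked most members alike in both lists. For the 34 members with peaks in both, the gene percentile of the summed score differed between the lists by a median of 3.90 points in size, against 2.88 over all 12375 such genes. The median of the signed difference, DOP-treated minus untreated, was -0.800 points for the members and 0.465 for all genes. More than 10 points separated the lists at 5 members (14.7%), while 9.93% of all genes were that far apart. These were Zbtb7b, Zbtb37 (68.3 in the DOP-treated and 48.1 in the untreated list), Zbtb20 (77.6 and 60.5), Zbtb46 (31.6 and 16.2) and Zbtb17 (42.4 and 56.2). Shifts at least as large as that of Zbtb37 in the same direction were found at 102 genes (0.824%), and those for Zbtb20, Zbtb46 and Zbtb17 at 1.51%, 2.09% and 1.92% of genes. Zbtb20 was among the genes used to choose the family, so its shift and the share of 14.7% are a description only.

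**Figure D3:**
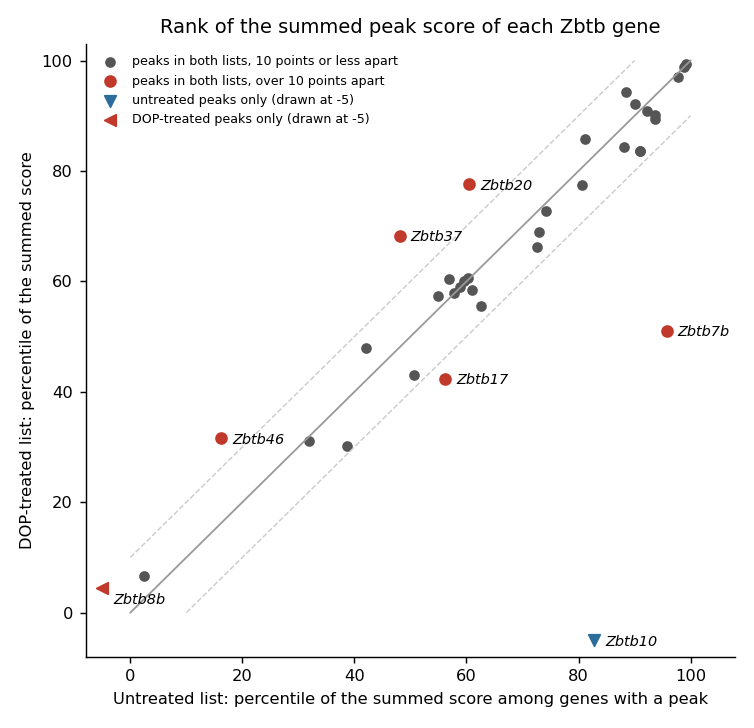
Percentile of the summed peak score of each Zbtb gene among all genes with a peak, in the untreated list (horizontal axis) and in that of DOP-treated cells (vertical axis). The solid line marks equal percentiles and the dashed lines 10 points to either side. Named red circles are the 5 genes outside the dashed lines, with Zbtb7b farthest at 95.7 and 51.1, and triangles in the margin are the genes with peaks in 1 list only.

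Counting each peak once, 131 DOP-treated and 131 untreated peaks lay near Zbtb genes. Of the DOP-treated peaks, 19 (14.5%, 95% Wilson interval 9.49 to 21.5) had no counterpart, against 16.2% of all DOP-treated peaks near genes. Of the untreated peaks, 15 (11.5%, 7.06 to 18.0) had none, against 13.3%. The intervals cover the counting of peaks only and include both background shares. They treat peaks as independent although many lie side by side, and they count the peaks by which the family was chosen. They therefore do not test a difference. Shared centres lay a median of 29.5 bp (DOP-treated) and 30.5 bp (untreated) from the nearest centre of the other list, against 33.0 bp and 34.0 bp over all genes. Every peak was shared at 16 of the 34 members with peaks in both lists (47.1%), close to the 45.8% of all such genes.

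The median percentile of single peaks near members was 60.6 in the DOP-treated and 66.9 in the untreated list, against 55.2 and 55.1 for all peaks near genes. The highest peak per gene had a median percentile of 87.2 and 89.4 at the members, compared with 78.4 and 77.3 at all genes with a peak. Members with many starts have more bases within the window than others, and no correction was made for this. At the limit of the window, the outermost peaks counted lay 9704 bp (DOP-treated, percentile 58.8) and 9857 bp (untreated, percentile 66.9) from a Zbtb48 start. The nearest peaks left out lay 10789 bp (percentile 80.7) and 10735 bp (percentile 73.0) from it.

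Most peaks counted for the members lay close to a start. Positions were not computed for the peaks near all genes, so the shares below are a description and not a trait of the family. Within 1 kb of a start of a Zbtb gene lay 68.7% of DOP-treated and 70.2% of untreated peaks, and 58.8% and 57.3% of peaks lay downstream of the nearest such start. Introns held 52.7% and 53.4% of the peaks, 5′ UTRs 16.0% in both lists, and coding exons 6.11% and 9.16%. For 70.2% of the peaks in each list, a start of a Zbtb gene was the nearest of all protein-coding starts. The remaining peaks were nearer to a gene outside the family, as at Zbtb32, and cannot be assigned to the Zbtb gene by position.

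**Figure D4:**
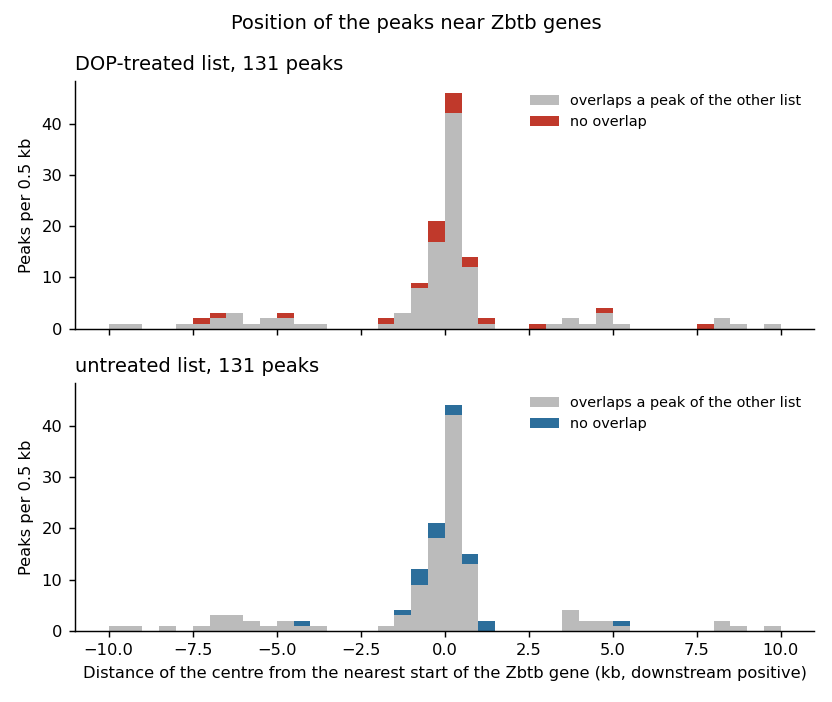
Number of peaks per 0.5 kb (vertical axis) by distance of the centre from the nearest start of a Zbtb gene in kb (horizontal axis, downstream positive), for the 131 peaks of the DOP-treated list (top) and the 131 of the untreated list (bottom). Grey parts of the bars are peaks that overlap a peak of the other list and coloured parts are the 19 and 15 that do not, and the highest bar lies just downstream of the start in both lists.

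The members had 152 distinct starts, between 1 and 20 per gene. A DOP-treated peak lay within 1 kb of 96 starts (63.2%) and an untreated peak within 1 kb of 97 (63.8%), against 45.9% and 45.3% of all 70021 starts of protein-coding genes. These counts include starts of Zbtb20 (9 DOP-treated, 1 untreated) and Zbtb10 (0 and 1), the genes used to choose the family. At Zbtb7b the counts were 1 and 8. A peak near several starts is counted for each, so the shares are a description only. Sequence composition was read in windows from 250 bases before to 50 bases after each start. The 106 Zbtb starts with a peak in either list had a median GC content of 65.8% and a median CpG ratio, observed over expected, of 0.83. For the 46 starts without a peak, the medians were 47.7% and 0.30. The medians over all genes were 62.7% and 0.80 with a peak, and 49.7% and 0.25 without. Starts of 1 gene are not independent, and no correction was made for this. Zbtb20 held 20 of the Zbtb starts, 9 of them with a peak, and Zbtb38 held 13, of which 7 had a peak. This limit also holds for the motif shares below.

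A GC box (GGGCGG on either strand) occurred in 72.6% of Zbtb windows with a peak and in 8.70% of those without. Over all genes, 66.8% of windows with a peak and 16.7% of those without held it, and 40.2% of all windows did. The Zbtb16 start departed from this pattern with a GC content of 68.0%, a CpG ratio of 0.73 and a GC box, yet no peak. At Zbtb7b, 9 of 10 windows held a GC box, and at Zbtb20 1 of 20 did. The motif TCTCGCGA on either strand, a sequence to which Kaiso has been linked, was found in 4 Zbtb windows (2.63%), which belong to Zbtb40 and Zbtb42, and in 1.23% of all windows.

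**Figure D5:**
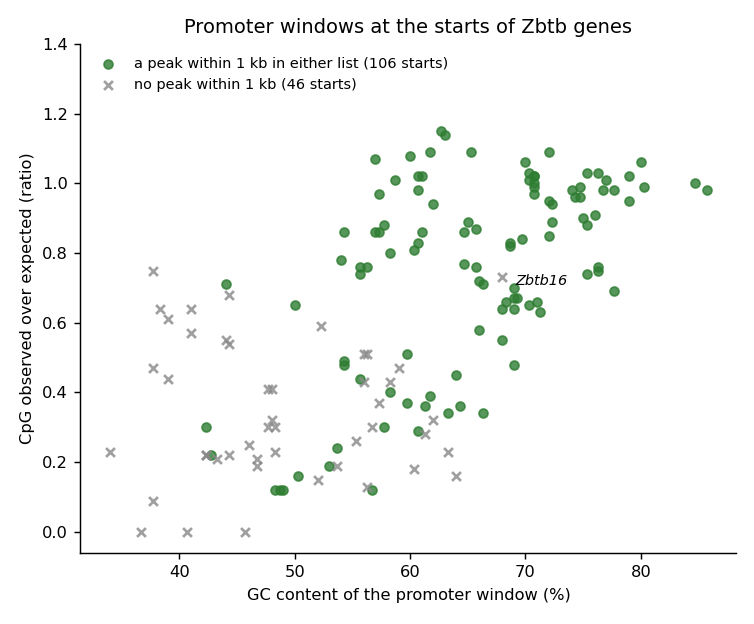
GC content in percent (horizontal axis) and CpG observed over expected as a ratio (vertical axis) of the 152 promoter windows at Zbtb starts. Circles are the 106 starts with a peak of either list within 1 kb and crosses the 46 without, and the labelled cross is Zbtb16, at a GC content of 68.0% and a ratio of 0.73 among the circles.

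The 200-bp intervals of shared peaks near members had a median GC content of 63.0% (DOP-treated) and 64.0% (untreated), against 62.5% in each list for all shared peaks near genes. Peaks without a counterpart had a lower median, 55.5% (DOP-treated) and 59.0% (untreated). For all such peaks near genes the medians were 53.0% and 51.5%. The untreated peak of Zbtb10 shown above, which is among the peaks without a counterpart, had a GC content of 76.5%.

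Listed BTB zinc finger genes and partners of BTB domains had peaks in both lists where annotated. Of all 22380 gene entries, 12375 had peaks in both. Whether a neighbouring gene's start lay nearer to these peaks was not examined. Of 12 further symbols listed for BTB zinc finger genes, 10 were found in the annotation and all 10 had peaks in both lists. Their highest peaks stood between percentiles 76.7 and 93.3 in the DOP-treated list and between 66.6 and 95.0 in the untreated list. Members were taken by symbol only, so genes of the same protein family under another symbol can be among these. All 7 partners of BTB domains also had peaks in both. Among them, Bcor had 5 DOP-treated and 9 untreated peaks, Sin3a had 7 and 3, and Hdac3 had 6 and 4.

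Markers of other cell types were mostly without peaks. Astrocyte markers had none in either list (0 of 3), and of 8 markers of mature striatal projection neurons only Ppp1r1b had peaks, 4 in each list, with the highest at percentiles 80.2 (DOP-treated) and 85.4 (untreated). Among 4 oligodendrocyte markers, Mbp alone had peaks, and these were DOP-treated only, with the highest at percentile 7.58. Of 3 microglia markers, Aif1 had 4 DOP-treated and 5 untreated peaks with the highest at percentiles 98.1 and 94.3, whereas Csf1r and Cx3cr1 had none. For these markers and the progenitor markers above, peaks were counted within 10 kb of a start. Whether a neighbouring gene's start lay nearer to them was not examined.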

How the data were processed

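H3K9ac ChIP-seq was made from DOP-treated (2 samples) and untreated (2 samples) STHdh Q111 cells. The authors aligned single-end reads to mm9, with Bowtie 2 in the study's methods and BWA 0.7.10 in the submitters' processing notes, and called peaks with GPS (the files name GEM). How the samples of a condition and the IgG sample entered the call, and the threshold, are not given in the sources used here. The deposited lists give, for each peak, an interval, the called position and a score whose definition they do not state. The score was therefore ranked within its own list, as single scores and as sums per gene. Scores and sums were also printed as they stand, and whether they are on 1 scale in both lists is not known. Depth per sample is unknown, 0 columns of per-sample values were left unused, and no test was possible with 1 list per condition.

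Gene starts came from GENCODE vM1 and sequence from the NCBIM37 (mm9) assembly. Peaks within 10 kb of a start were counted for a gene, and overlap of at least 1 bp made a peak shared. Chains of peaks within 1 kb of each other formed clusters. The members and lists were chosen with earlier results of these data known. Genes given one by one were Zbtb10, Zbtb20, members with peaks in 1 list or none, those 3 or more peaks apart, the 5 with the highest-scoring peak and the 3 with most peaks in each list. Zbtb17, Zbtb37 and Zbtb46, which lay over 10 points apart in summed score, and the other members and genes named were added after their values were seen. The alternatives were other windows, the nearest start only, score limits, starts of protein-coding transcripts, exclusion of Zbtb8os, other sharing rules and clusters. The functions were tested on simulated data. Some genes and sequences are not reported here. Genome sequence was read with samtools 1.23.1 and pysam 0.24.0, and values were computed in Python 3.11.15 (pandas 2.3.3 and numpy 2.4.6). Intervals came from scipy 1.17.1 and plots from matplotlib 3.10.9.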

Additional observations from a re-analysis of the deposited data

How the results depend on the processing

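Of 68 alternatives computed over 8 counts and 13 settings, 54 stayed within 1.5 times the reported count. The number of members with DOP-treated peaks only was 1 as reported (Zbtb8b). It was 0 with a window of 1 kb and with the top 50% of each list by score, and 2 with a score of at least 100 (Zbtb7c and Zbtb8b) and with starts of protein-coding transcripts only (Zbtb20 and Zbtb8b). The 131 DOP-treated peaks near members became 84 with the top 50% of each list. The 19 DOP-treated peaks without a counterpart became 11 with a window of 1 kb and 9 with the top 50% of each list, 8 and 7 when centres within 1 kb or 2 kb counted as shared, and 6 when clusters were compared. The 15 untreated peaks without a counterpart became 25 with a reciprocal overlap of at least 50%, 7 and 6 with centres within 1 kb or 2 kb, and 4 with clusters. The cause was not tested for any of these changes.

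No paired analysis was possible because each condition had 1 peak list, and no replicate was left out for the same reason. Without counts of reads, a peak missing from 1 list cannot be told apart from one just under the threshold of the call, and differences between the lists cannot be told apart from differences between samples.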

Other observations

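The scores of neighbouring peaks added up to whole numbers. Among clusters of 2 or more peaks within 1 kb of each other, the summed score lay within 0.15 of a whole number in 98.5% of 10117 DOP-treated and 98.6% of 9910 untreated clusters. The single scores of the same peaks did so in 46.1% and 45.8%. Near Zbtb genes, the summed score was whole by this measure for 32 of the 33 members with 2 or more peaks in each list. For example, the untreated scores of Zbtb10 (1205.7, 1255.3 and 594.0) summed to 3055.0.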
